A study of Mus musculus with 40 samples.

Results

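The 10 genes described here are Cldn5, Ocln, Cdh5, Pecam1, Slc2a1, Mfsd2a, Abcb1a, Flt1, Tek and Vwf, which mark the endothelial cells of brain vessels and the barrier these cells form. They were found on the arrays by gene name alone, through 12 of 55681 probes, and each of the 10 genes had at least 1 probe. Flt1 and Ocln had 2 probes each, and the brighter one stood for the gene. For all 10 genes that probe was well above background on all 40 arrays, and none was saturated.

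Endothelial cells of brain capillaries are joined by tight junctions, which contain claudin-5 (Cldn5) and occludin (Ocln), and by adherens junctions, which contain VE-cadherin (Cdh5), with Pecam1 at the same cell borders. Because little passes between such cells, nutrients enter through carriers, such as the glucose transporter of Slc2a1 and the lysolipid transporter of Mfsd2a, while the P-glycoprotein of Abcb1a pumps drugs back to the blood. Flt1 is a receptor of VEGF, Tek is the receptor of the angiopoietins, and Vwf is a clotting protein stored and released by endothelial cells.

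Total RNA of cerebral cortex and cerebellum was hybridized to 40 1-colour arrays, 4 for each of 10 groups, and the study's methods give 4 mice per group. All mice had the C57Bl/6 background. In each region, young (2-month) and aged (29-month) wild-type groups ate the normal diet, which holds 36 mg of α-tocopherol (vitamin E) per kg. Another aged wild-type group was fed the α-tocopherol-deficient diet. The Ttpa-/- mice, which lack the transfer protein that keeps α-tocopherol in the circulation, were also 29 months old and were fed either the deficient diet or the supplemented diet with 600 mg per kg. No Ttpa-/- group had the normal diet and no young group had another diet, so genotype and age were each compared on the diets available. The mice lacked the gene in the whole body, and no vessel or endothelial cell was isolated.

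Levels are given on the log2 scale, as the processed signal over the array's own 75th percentile, so that 0 is that percentile and a step of 1 is a doubling. The 75th percentile ran from 365 to 925 intensity units, with 51.4% to 61.4% of probes detected above background. Arrays of a group correlated at 0.973 to 0.993. Of the probe pair for Ttpa, the gene deleted in the Ttpa-/- mice, the first was above background on at most 1 of 4 arrays in any group. The second passed background in all 4 arrays of each of the 3 wild-type cerebellar groups, with means of -3.01, -3.34 and -3.78, and on 0 and 1 of 4 in the deficient and the supplemented Ttpa-/- cerebellum. In the cortex it was above background on at most 1 of 4 arrays in either genotype, so it checks the genotype in the cerebellum alone. The marker genes listed for each region were called on the side of their label, 4 of 4 for cortex and 4 of 4 for cerebellum in all 5 conditions. Among the other endothelial genes, 21 to 23 of 23 were above background on all 4 arrays of each group.

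The probes that carry the results below are shown by the first 30 of their 60 bases, as printed on the array from 5′ to 3′, so that a reader can see which part of each transcript was read. Positions are on mm9. The Vwf probe lies at chr6:125636551-125636610 on the plus strand and starts at base 8672 of its transcript. The Mfsd2a probe (chr4:122624182-122624241, minus strand) starts at base 2002, the Slc2a1 probe (chr4:118809864-118809923, plus strand) at base 2501, and the first Flt1 probe (chr5:148373791-148373850, minus strand) at base 6201. The Ocln probes lie at chr13:101268529-101268588 and chr13:101267384-101267443 on the minus strand and start at bases 1925 and 3070 of the same transcript. The second Flt1 probe lies at chr5:148465976-148466035, on a transcript that was not among the reference's transcripts of the gene. It was above background on 0 of 40 arrays, so it has no level here.
Vwf: caagtgaggcctgtgcagctacagcggatt
Mfsd2a: ctgactgggcctagctcggaacactaatgt
Slc2a1: acccacttgtaaatacaccaacaaactcct
Flt1: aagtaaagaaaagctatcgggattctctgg
Ocln, first probe: aaatggcttttgataattgactgggctgaa
Ocln, second probe: cccaatttggtctgttttagctgaaaatgt

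**Figure D1:**
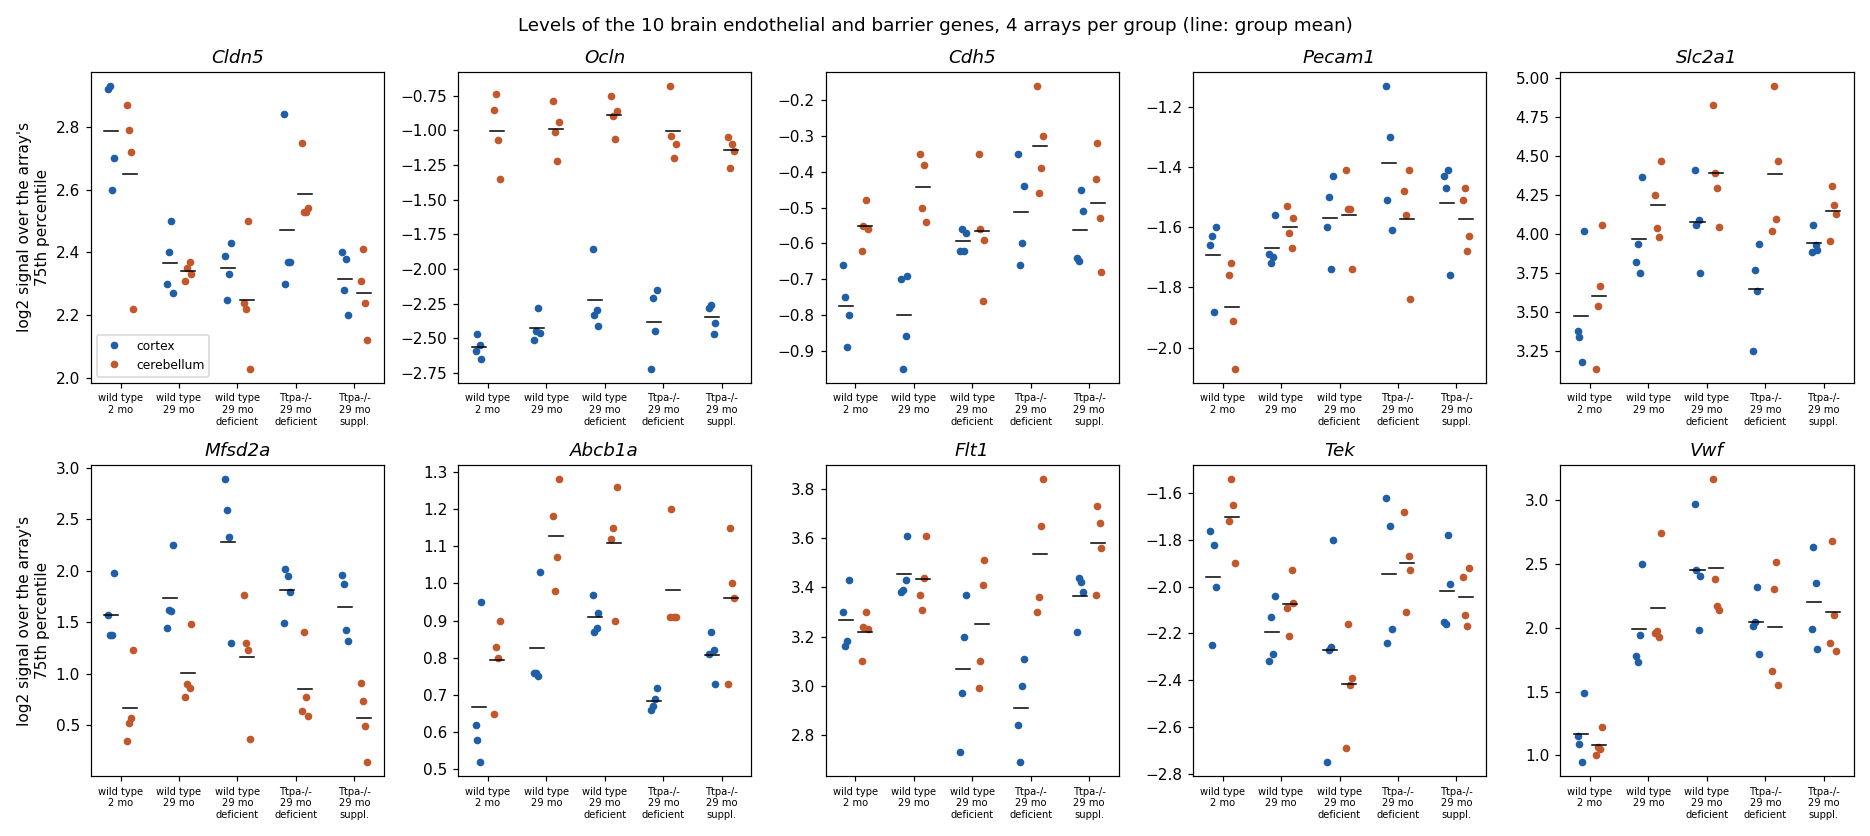
Levels of the 10 genes on each array, by condition and region (blue cortex, orange cerebellum), as log2 signal over the array's 75th percentile; each point is 1 array and the line is the mean of 4. Ocln separates the regions in every condition, and Vwf lies lowest in the 2-month mice of both regions; the vertical axes differ between panels.

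Ageing was compared between wild-type mice of 29 and of 2 months on the normal diet. Vwf was higher in the old mice of both regions and passed the test in the cerebellum. Cldn5 was lower in the old cortex by less than the 1.5-fold required for a call. A call needed an adjusted p under 0.05 (limma, Benjamini-Hochberg over all probes tested) and a fold change over 1.5. In the cerebellum 1 of 10 members was called, beside 5.03% of the 30627 probes tested, and in the cortex 0 of 10, beside 2.09% of 28043. In the cortex 3 members had an unadjusted p under 0.05, and the methods' t-test, adjusted in the same way, also called 0. In the cerebellum 6 members had an unadjusted p under 0.05. The share of all probes at an unadjusted p is not given, here or in later comparisons. An adjusted p under 0.05 (limma) was reached by Vwf and Abcb1a in the cerebellum, beside 11% of probes, and by Cldn5 in the cortex, beside 4.15%.

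Vwf stood at 1.0, 1.07, 1.05 and 1.22 in the young cerebellum and at 1.96, 1.97, 1.93 and 2.74 in the old cerebellum. The groups did not overlap, and the highest old array stood well apart from the other 3. Vwf rose 2.09-fold (log2 1.07, SE 0.25, 95% interval 0.56 to 1.57, adjusted p = 0.00374), and it was called in all 20 alternative settings, among them without each array in turn (log2 0.87 to 1.14, adjusted p 0.0011 to 0.0356). In the cortex the values were 1.15, 1.09, 0.95 and 1.49 at 2 months and 1.78, 1.73, 1.94 and 2.50 at 29 months. These groups did not overlap either, and the difference was 0.82 (SE 0.25, 95% interval 0.31 to 1.32), with an adjusted p of 0.0567. Without array 4 of the young cortex it passed (0.92, adjusted p = 0.0493), as it did under quantile normalization (0.81, adjusted p = 0.0495), normexp background correction (0.79, adjusted p = 0.048) and array weights (0.72, adjusted p = 0.0296). The difference of the 2 effects, cortex minus cerebellum, was -0.25 (95% interval -0.97 to 0.47, adjusted p = 0.909), and no member passed this interaction test, beside 1.46% of the probes, and 0 had an unadjusted p under 0.05 (limma; the methods' t-test has no interaction).

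Of the junction genes, Cldn5 stood at 2.92, 2.93, 2.60 and 2.70 in the young cortex and at 2.30, 2.40, 2.50 and 2.27 in the old cortex. All old arrays lay below all young ones, with a difference of -0.42 (SE 0.12, adjusted p = 0.0339), a fold of 0.747. In the cerebellum the difference was -0.31 (adjusted p = 0.0873), and 1 young array, at 2.22, lay below all 4 old arrays, at 2.31 to 2.37. Ocln differed by 0.02 in the cerebellum and by 0.14 in the cortex, and Cdh5 and Pecam1 by at most 0.26 in either region, none with an adjusted p under 0.05.

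Of the transporters, Abcb1a stood at 0.65 to 0.90 in the young and at 0.98 to 1.28 in the old cerebellum, without overlap. The difference was 0.33 (SE 0.10, adjusted p = 0.0197), a fold of 1.26. Slc2a1 was higher by 0.58 in the old cerebellum (95% interval 0.16 to 1.0, adjusted p = 0.0673) and by 0.49 in the old cortex (adjusted p = 0.226). Without array 4 of the young cerebellum, where Slc2a1 was highest among its group at 4.06, the cerebellar difference was 0.73 (adjusted p = 0.022) and was called, as it was under quantile normalization (0.60, adjusted p = 0.025). Mfsd2a differed by 0.34 in the cerebellum and by 0.16 in the cortex, with within-group spreads of 0.29 to 0.39. Of the receptors, Tek was lower by 0.37 in the old cerebellum (adjusted p = 0.125), and its arrays did not overlap. In the cerebellum 5 of 10 members had groups that did not overlap and in the cortex 2 of 10, beside 19.1% and 14% of the probes tested.

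The other genes of brain vessels were taken from lists. Of 23 genes of endothelial identity, 6 rose and 0 fell in the old cerebellum, with a median difference of 0.46 beside -0.01 over all probes tested. Among them were the transcription factors Klf2 (1.36), Klf4 (1.09) and Sox17 (0.93), named after their values were seen. In the old cortex 1 rose (Klf4, 0.71), and the median of the 21 tested was 0.21 beside -0.03. Of 13 other barrier transporters, 1 rose and 1 fell in the cerebellum, as did 1 and 1 of 10 genes of the Wnt pathway that maintains the barrier and 1 and 1 of 5 tested genes of endothelial activation. Of the VEGF and angiopoietin list 1 of 9 fell, and no gene was called among 9 tight junction partners, 3 genes of caveolae and fenestration, 9 of pericytes, 4 of smooth muscle, 4 of oligodendrocytes and 4 of neurons. Of 5 astrocyte genes 1 rose, and of 4 fibroblast genes 1 fell. Among the list genes whose arrays did not overlap, the largest rises in the cerebellum were those of Alas2 (2.67, above background on 3 of 4 young arrays) and Hbb-b1 (2.58), both of red cells, and of Icam1, the adhesion molecule of leukocytes. Icam1 was well above background on 0 of 4 young and 4 of 4 old arrays, and was at least 1.95-fold higher (adjusted p = 0.000122), its lower level being set on each array to the lowest signal above background, or to its own where higher. The largest falls were in Ttr (-7.70, above background on 3 of 4 old arrays) and Kl (-2.30) of the choroid plexus and in Col3a1 (-1.39) of fibroblasts. In the cortex the largest rise among the called list genes was that of Gfap, the filament of astrocytes (1.51). The median of the 2 red cell genes tested there was 2.67, and neither was called.

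Markers of other cells moved with age in the same libraries. The 3 red cell genes summed to 3.06 to 7.46 times the 75th percentile in the young and 11.9 to 84.4 in the old cerebellum, and to 0.434 to 1.97 and 4.69 to 11.1 in the cortex. The 5 microglial genes, of which 4 rose, summed to 11.3 to 15.3 and 23.1 to 26.8 in the cerebellum, and to 43.1 to 54.1 and 44.3 to 49.8 in the cortex, where 0 were called. The 7 choroid plexus genes summed to 5.61 to 244 in the young and to 3.36 to 4.00 in the old cerebellum, where 4 of the 7 were above background on all 4 arrays. The 5 astrocyte genes summed to 35.8 to 45.2 and 54.7 to 65.6, the 4 neuronal genes to 267 to 286 and 231 to 262, and the 4 cerebellar genes to 462 to 548 and 400 to 443 in the young and old cerebellum, each without overlap. The 9 pericyte genes summed to 15.3 to 18.5 and 17.2 to 19.0. Their part in the differences of the endothelial genes was not tested. In whole tissue, more cells of a type and more RNA per cell cannot be told apart. The young and old cortex shared a slide, while the young and old cerebellum lay on different slides, so slide and age cannot be told apart there.

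**Figure D2:**
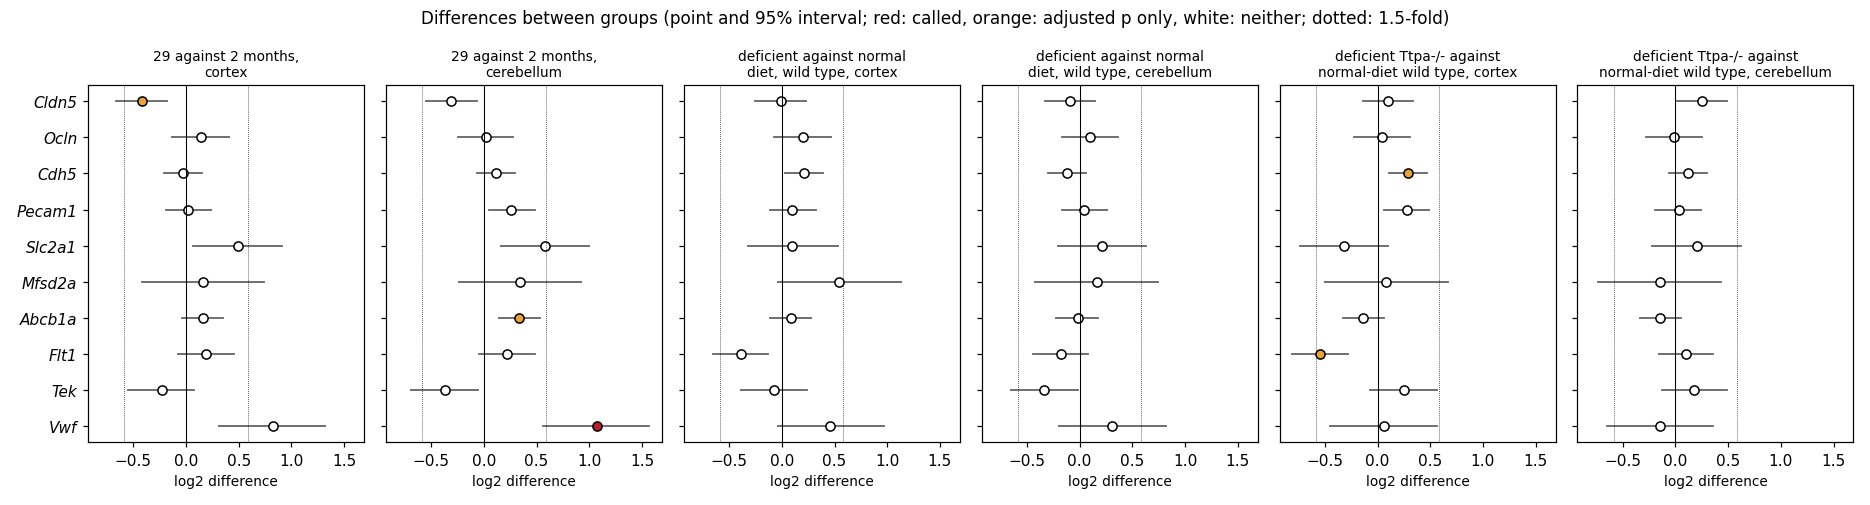
Log2 differences of the 10 genes in 6 comparisons, with 95% intervals from the fit; red points passed the adjusted p and the 1.5-fold threshold (dotted lines), orange points the adjusted p alone. Vwf in the ageing cerebellum, at 1.07, is the red point, and Flt1 in the cortex of deficient Ttpa-/- mice, at -0.55, lies just inside the line.

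The diet was compared in wild-type mice of 29 months. No member was called when the deficient diet was set against the normal one, in the cortex (beside 0.223% of probes) or in the cerebellum (beside 1.27%), and the methods' t-test with adjustment also called 0. An unadjusted p under 0.05 was reached by 2 members in the cortex and by 1 in the cerebellum. In the cortex Flt1 stood at 3.38, 3.39, 3.43 and 3.61 on the normal diet and at 2.73, 2.97, 3.20 and 3.37 on the deficient one. The groups lay apart by 0.01, and the difference was -0.39 (95% interval -0.65 to -0.13, adjusted p = 0.141). In the cerebellum the difference in Flt1 was -0.18 (95% interval -0.44 to 0.08), and in Tek -0.34 (95% interval -0.65 to -0.02, adjusted p = 0.2). The cerebellar groups shared a slide, while the cortical ones did not.

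Mfsd2a and Vwf had their widest within-group spread in the deficient wild-type mice, in both regions. In the cortex Mfsd2a stood at 2.89, 2.59, 2.33 and 1.30 there and at 1.44, 1.62, 1.61 and 2.25 on the normal diet. The deficient group held both the highest and the lowest array, and the difference was 0.54 (SE 0.29, adjusted p = 0.359). With array weights, a fit that lets arrays count unequally, Mfsd2a was called (0.79, adjusted p = 0.0167). Vwf stood at 2.97, 2.45, 1.98 and 2.40, with a difference of 0.46 (95% interval -0.04 to 0.97, adjusted p = 0.369).

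Loss of Ttpa together with the deficient diet was compared with wild-type mice of the same age on the normal diet. No member was called in the cortex (beside 4.75% of probes) or in the cerebellum (beside 4.46%), and the methods' t-test with adjustment also called 0. In the cortex Flt1 was lower and Cdh5 was higher, both past the adjusted p and short of the 1.5-fold threshold. Flt1 stood at 2.84, 2.69, 3.00 and 3.11 in the deficient Ttpa-/- cortex, below all 4 values of the normal diet given above. The difference was -0.55 (SE 0.13, 95% interval -0.81 to -0.28, adjusted p = 0.00361), a fold of 0.685, and without array 4 of the Ttpa-/- group it was called (-0.61, adjusted p = 0.00179). Cdh5 stood at -0.35, -0.66, -0.60 and -0.44 against -0.70, -0.95, -0.86 and -0.69, without overlap, a difference of 0.29 (SE 0.09, adjusted p = 0.0203). So 2 of 10 members had an adjusted p under 0.05 in the cortex (limma), beside 19% of all probes tested. An unadjusted p under 0.05 was reached by 3 of 10, the third being Pecam1 (0.28, adjusted p = 0.0595). The share of all probes at an unadjusted p is not given.

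In the cerebellum 1 member, Cldn5, had an unadjusted p under 0.05 (0.25, adjusted p = 0.166). Flt1 stood there at 3.37, 3.31, 3.44 and 3.61 in the wild type and at 3.30, 3.36, 3.65 and 3.84 in the Ttpa-/- mice, a difference of 0.10 (95% interval -0.16 to 0.36) with overlapping groups. The second Flt1 probe gives no check, since it was at background. The interaction, the cortical minus the cerebellar effect, was -0.65 (SE 0.18, 95% interval -1.02 to -0.28, adjusted p = 0.028), and Flt1 was the 1 member of 10 called, beside 3.38% of probes. The fit did not pair same-numbered arrays of the regions, whose Flt1 deviations correlated at 0.84. As fitted, this call is close to its threshold. It was lost under median scaling (-0.57, adjusted p = 0.306) and in a fit of the 4 groups alone (-0.65, adjusted p = 0.0775). It was also lost without array 4 of the aged wild-type cortex (-0.60, adjusted p = 0.0537), array 1 or 2 of the Ttpa-/- cortex (-0.62, adjusted p = 0.0597, and -0.57, adjusted p = 0.0731), array 1 or 2 of the aged wild-type cerebellum (-0.63, adjusted p = 0.0534, and -0.61, adjusted p = 0.06) or array 4 of the Ttpa-/- cerebellum (-0.55, adjusted p = 0.0857). Among the other receptors and ligands of the VEGF and angiopoietin list, Pgf, a ligand of Flt1, was lower in the Ttpa-/- cerebellum (-0.66, adjusted p = 0.00689), and its interaction was 0.95 (adjusted p = 0.0114). Pgf was the 1 called gene among the 9 tested in that region.

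Vessel genes of the lists in the deficient Ttpa-/- cortex are given with the markers of other cells. Of 22 genes of endothelial identity tested 1 rose and 2 fell, with a median difference of -0.17 beside -0.02 over all probes. Sox18, a transcription factor of endothelial cells, rose by 0.64 (adjusted p = 0.0156), and Gpr116, an adhesion receptor, fell by 1.0 (adjusted p = 0.000211). The other large rises with separate arrays were in Darc, the chemokine receptor of venules (0.69), and Slc16a1, a lactate carrier (0.64), and the other falls in Kcnj8 of pericytes (-0.83, above background on 3 of 4 Ttpa-/- arrays) and Lum of fibroblasts (-0.73). The 23 identity genes summed to 81.7 to 91.3 in the wild-type and 70.7 to 76.2 in the Ttpa-/- cortex, while the 9 pericyte genes summed to 16.6 to 17.7 and 15.9 to 18.0 and the 3 red cell genes to 4.69 to 11.1 and 4.48 to 164. The sums of 4 neuronal genes (366 to 396 and 323 to 360), of 5 astrocyte genes (44.3 to 57.1 and 39.4 to 44.1) and of 10 Wnt pathway genes (8.62 to 9.38 and 7.61 to 8.46) were lower in the Ttpa-/- cortex without overlap. Those of 6 genes of endothelial activation (10 to 12.6 and 13.7 to 15.1) and of the 10 VEGF and angiopoietin genes (24.6 to 25.5 and 26.4 to 28.1) were higher without overlap. The part of these shifts in the difference of Flt1 was not tested. The groups lay on different slides in both regions, and slide and group cannot be told apart.

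On the deficient diet, Ttpa-/- mice were also compared with wild-type mice, and no member was called in the cortex (beside 3.07%) or the cerebellum (beside 4.94%). The methods' t-test with adjustment called 0 in both, and 3 and 4 members had an unadjusted p under 0.05. Tek stood at -2.69, -2.16, -2.42 and -2.39 in the wild-type and at -1.68, -2.11, -1.87 and -1.93 in the Ttpa-/- cerebellum, without overlap. The difference was 0.52 (SE 0.15, 95% interval 0.21 to 0.83, adjusted p = 0.0236), a fold of 1.43. It was called under median scaling (0.70, adjusted p = 0.00468), under quantile normalization (0.62, adjusted p = 0.00393), and without array 2 of the wild-type (0.60, adjusted p = 0.0178) or of the Ttpa-/- cerebellum (0.59, adjusted p = 0.019). In the cortex Mfsd2a differed by -0.46 (adjusted p = 0.292), and by -0.79 (adjusted p = 0.0439) without array 4 of the wild-type mice, the low value of 1.30. From the lists, Sox18 rose by 0.77 in the cortex and by 0.69 in the cerebellum, where Sox7 (1.23) and Sox17 (0.82) of the same family also rose. The list of 23 endothelial identity genes did not rise as a whole. Its sum was 84.3 to 105 in the wild-type and 70.7 to 76.2 in the Ttpa-/- cortex, lower without overlap. In the cerebellum the sums overlapped, at 65.7 to 110 and 64.4 to 79.7. Gpr116 fell by 1.25 and by 0.83, and Tfrc, the transferrin receptor of brain capillaries and other cells, by 0.95 and by 0.77. Erg, an endothelial transcription factor, was above background on 4 of 4 wild-type and 0 of 4 Ttpa-/- cortical arrays and was at least 1.5-fold lower (adjusted p = 0.0354). The groups lay on different slides in both regions.

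The supplemented Ttpa-/- mice had no called member against the aged normal-diet group, in the cortex (beside 0.092%) or the cerebellum (beside 4.91%), with 1 and 0 members under an unadjusted p of 0.05. They had none against the deficient wild-type mice either, in the cortex (beside 0.0316%) or the cerebellum (beside 3.5%), with 2 and 3 such members. The methods' t-test with adjustment called 0 in these 4 comparisons, of which the cortical one against the deficient wild type lay within 1 slide. Against the normal diet in the cortex, the member under 0.05 was Cdh5, at -0.64, -0.65, -0.45 and -0.51 against -0.70, -0.95, -0.86 and -0.69, without overlap. The difference was 0.24 (95% interval 0.06 to 0.42, adjusted p = 0.344). The intervals of the differences lay within -0.35 and 0.17 for Flt1, -0.29 and 0.19 for Cldn5, and -0.21 and 0.18 for Abcb1a, and were wider for Mfsd2a (-0.67 to 0.49) and Vwf (-0.29 to 0.72).

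Within the Ttpa-/- mice the deficient diet was set against the supplemented one. No member was called in the cortex (beside 3.31%) or the cerebellum (beside 0.343%), nor by the methods' t-test with adjustment, and 1 member in each had an unadjusted p under 0.05. Flt1 stood at 3.22, 3.44, 3.42 and 3.38 in the supplemented cortex, above all 4 deficient arrays. The difference was -0.46 (SE 0.13, 95% interval -0.72 to -0.19, adjusted p = 0.0176), a fold of 0.729. In the cerebellum it was -0.04 (95% interval -0.31 to 0.22). Cldn5 stood at 2.75, 2.53, 2.53 and 2.54 in the deficient and at 2.31, 2.41, 2.24 and 2.12 in the supplemented cerebellum, without overlap, and the difference of 0.32 had an adjusted p of 0.235. The comparisons of the deficient Ttpa-/- cortex share that group, so their differences in Flt1 are not independent. Gpr116 fell by 1.22 in the cortex and by 0.84 in the cerebellum, and Sox18 rose by 0.59 in the cortex. The 23 endothelial identity genes, to which both belong, summed to 70.7 to 76.2 in the deficient and 76.7 to 87.5 in the supplemented cortex. In the cerebellum their sums overlapped, at 64.4 to 79.7 and 60.8 to 73.6. The cerebellar comparison lies within 1 slide and the cortical one does not.

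In order of their means, the cortical groups ran for Flt1 from the deficient Ttpa-/- mice (2.91 ± 0.19, SD, n = 4) through the deficient wild-type (3.07 ± 0.28), the young wild-type (3.27 ± 0.13) and the supplemented Ttpa-/- mice (3.36 ± 0.10) to the aged normal-diet wild-type mice (3.46 ± 0.11). No step between neighbours was larger than the spread of the wider group. In the cerebellum the order was the young wild-type (3.22 ± 0.09), the deficient wild-type (3.25 ± 0.24), the aged wild-type (3.43 ± 0.13), the deficient Ttpa-/- (3.54 ± 0.25) and the supplemented Ttpa-/- mice (3.58 ± 0.16), again in steps within the spread.

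The regions were compared within each of the 5 conditions. Ocln was lower in the cortex and Mfsd2a was higher there in all 5, and in the deficient Ttpa-/- mice Slc2a1 and Flt1 were also lower in the cortex. The counts called were 2 of 10 in young wild-type mice (beside 38.4% of probes), 2 in aged normal-diet wild-type mice (beside 33.6%), 2 on the deficient diet (beside 43.3%), 4 in the deficient Ttpa-/- mice (beside 41.9%) and 2 in the supplemented ones (beside 37.1%). The called share of the members was below the background in 4 conditions and close to it in the deficient Ttpa-/- mice. The cortex and the cerebellum of a condition lay on different slides in every case, so slide and region cannot be told apart. The main fits did not pair same-numbered arrays, as the labels do not say whether they shared a mouse.

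Ocln stood at -2.59, -2.47, -2.55 and -2.65 in the young cortex and at -0.85, -0.74, -1.07 and -1.35 in the young cerebellum. Over all 5 conditions the cortical arrays lay between -2.72 and -1.86 and the cerebellar ones between -1.35 and -0.68, so no cortical array reached a cerebellar one. The differences were -1.56 (young), -1.44 (aged), -1.33 (deficient wild type), -1.38 (deficient Ttpa-/-) and -1.21 (supplemented Ttpa-/-), each with an SE of 0.13 and an adjusted p of at most 1.42e-09. The cortical level was 0.339 to 0.433 of the cerebellar one. The second Ocln probe, shown above, was well above background on all 4 cerebellar arrays of each condition and on 0 of 4 cortical ones, except 1 of 4 in aged normal-diet wild-type mice. In the other 4 conditions its cerebellar signal was at least 3.57-fold, 3.75-fold, 4.70-fold and 3.79-fold higher (young, deficient wild-type, deficient Ttpa-/- and supplemented Ttpa-/-), the cortical level being bounded in the same way.

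Of 9 other tight junction genes tested, 3 were lower in the young cortex and 0 higher, and in the deficient Ttpa-/- mice 5 were lower and 0 higher. In the other 3 conditions 4 of 10 were lower and 1 was higher. Over all probes tested, 17.8% to 23.2% were called lower in the cortex and 15.8% to 20.6% higher, depending on the condition. The median of the tight junction genes was -0.46 in the young mice, beside 0.02 over all probes. The 23 endothelial identity genes went the other way there, summing to 69 to 90.5 in the cortex and 45.9 to 52.1 in the cerebellum. Their sums overlapped between the regions in the deficient mice of both genotypes. Which cells of the whole tissue these differences came from was not tested. Marveld2, which encodes the related protein tricellulin, differed by -3.93 in the young mice (adjusted p = 2.63e-18), where it was above background on 3 of 4 cortical arrays. Cgn, which encodes the junction protein cingulin, differed by -0.98. Both were named after their values were seen.

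Mfsd2a stood at 1.57, 1.37, 1.37 and 1.98 in the young cortex and at 0.34, 0.52, 0.57 and 1.23 in the young cerebellum. The difference was 0.91 (SE 0.29, adjusted p = 0.00653), a fold of 1.88. In the other conditions it was 0.73 (aged, adjusted p = 0.0293), 1.11 (deficient wild type, adjusted p = 0.00101), 0.97 (deficient Ttpa-/-, adjusted p = 0.00378) and 1.08 (supplemented Ttpa-/-, adjusted p = 0.0016). The groups overlapped in the aged and in the deficient wild-type mice. The fit did not pair same-numbered arrays, whose Mfsd2a deviations correlated at 0.91 between the regions. In the aged normal-diet mice, by number, Mfsd2a stood at 1.44, 1.62, 1.61 and 2.25 in the cortex. On the same-numbered cerebellar arrays it stood at 0.77, 0.90, 0.86 and 1.48, lower in every pair. In the aged normal-diet wild-type mice the call was lost under median scaling (0.75, adjusted p = 0.0513), and without array 4 of the cortex (0.56, adjusted p = 0.123) or array 1, 2 or 3 of the cerebellum (0.65, 0.70 and 0.68, adjusted p = 0.0784, 0.0624 and 0.066).

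Slc2a1 stood at 3.25, 3.77, 3.64 and 3.94 in the cortex and at 4.02, 4.95, 4.10 and 4.47 in the cerebellum of the deficient Ttpa-/- mice. The difference was -0.73 (SE 0.21, adjusted p = 0.00247), and without array 2 of the cerebellum it was -0.55, short of the fold threshold. In the other conditions the difference in Slc2a1 was smaller, between -0.32 and -0.12, and it was not called. Flt1 differed by -0.63 (SE 0.13, adjusted p = 8.5e-05) in the deficient Ttpa-/- mice, and was no longer called without array 2 of their cortex (-0.55), without array 4 of their cerebellum (-0.53) or under median scaling (-0.53). The methods' t-test with adjustment did not call Slc2a1 (adjusted p = 0.0512) in these mice, or Mfsd2a in the deficient wild type (adjusted p = 0.0751). Cdh5 was lower in the cortex of young (-0.22, adjusted p = 0.0278) and aged (-0.36, adjusted p = 0.000814) wild-type mice, under the fold threshold. The same held for Abcb1a in aged wild-type mice (-0.31, adjusted p = 0.0071) and deficient Ttpa-/- mice (-0.30, adjusted p = 0.00704). Cldn5, Pecam1, Tek and Vwf had no adjusted p under 0.05 between the regions in any condition. For Vwf the 95% interval was -0.42 to 0.59 in young mice and -0.67 to 0.34 in aged ones on the normal diet.

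**Figure D3:**
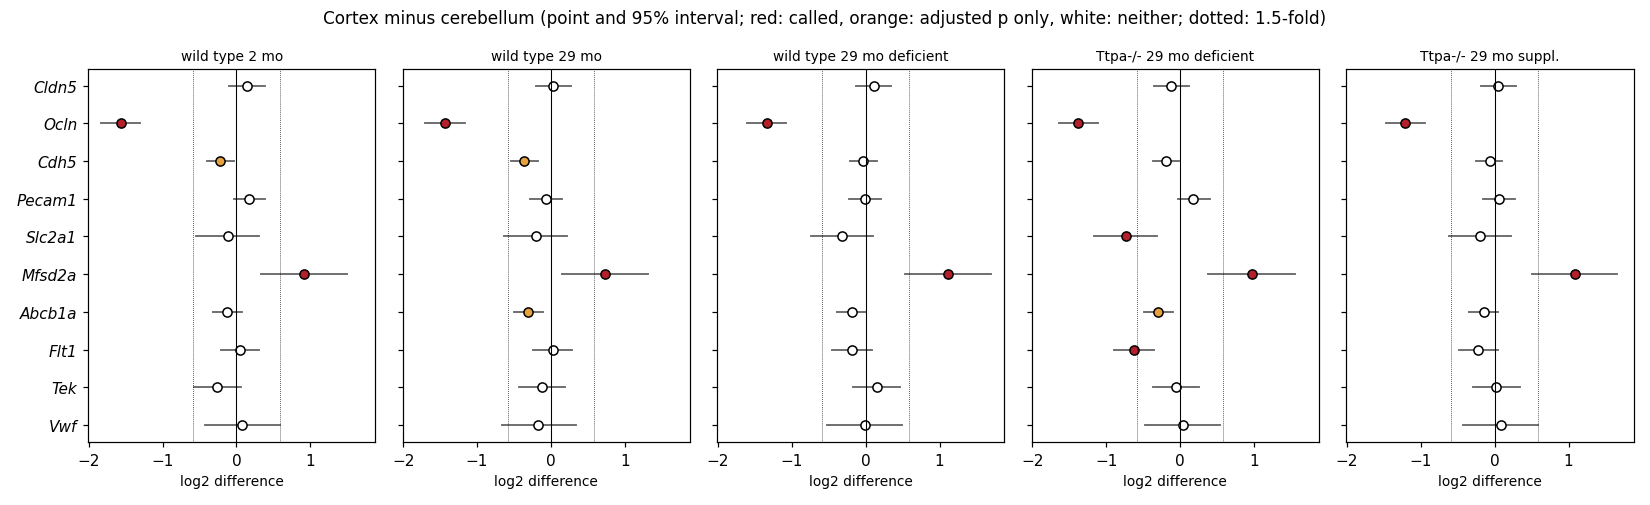
Log2 difference, cortex minus cerebellum, of the 10 genes in each of the 5 conditions, with 95% intervals; red points passed the adjusted p and the 1.5-fold threshold (dotted lines), orange points the adjusted p alone. Ocln lies between -1.56 and -1.21 and Mfsd2a between 0.73 and 1.11.

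Within the groups, the genes differed in how much they varied and in whether cortex and cerebellum varied together. The pooled within-group SD was 0.41 for Mfsd2a, 0.36 for Vwf and 0.30 for Slc2a1, and between 0.12 and 0.22 for the other 7. Deviations from the group mean were then compared between the cortical and the cerebellar array of the same condition and replicate number, in 20 pairs. Over these pairs they correlated at 0.91 for Mfsd2a, 0.86 for Vwf, 0.84 for Flt1 and 0.74 for Slc2a1. Without the 2 pairs farthest from the cortical group mean the values were 0.84, 0.77, 0.78 and 0.64, and Spearman's rho over all pairs was 0.85, 0.77, 0.81 and 0.71. For the other 6 genes the values were 0.39 (Cldn5), 0.36 (Abcb1a), 0.33 (Tek), 0.28 (Pecam1), 0.03 (Cdh5) and -0.15 (Ocln). Over the 24803 probes above background on every array the median was 0.22, and 0.323% of them reached 0.84. The labels do not say whether arrays with the same number came from the same mouse. The points of a condition share their group means, and the arrays of a group share a slide.

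For Mfsd2a the deviations had the same sign in 19 of 20 pairs and for Vwf in 17 of 20. In the deficient wild-type mice, array 1 was the highest of its group for both genes and in both regions, at 2.89 in cortex and 1.76 in cerebellum for Mfsd2a and at 2.97 and 3.16 for Vwf. Array 4 of that group was the lowest in both regions for Mfsd2a, at 1.30 and 0.36. Array 4 of the aged normal-diet wild-type mice was highest in both regions for Mfsd2a (2.25 and 1.48) and for Vwf (2.50 and 2.74).

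**Figure D4:**
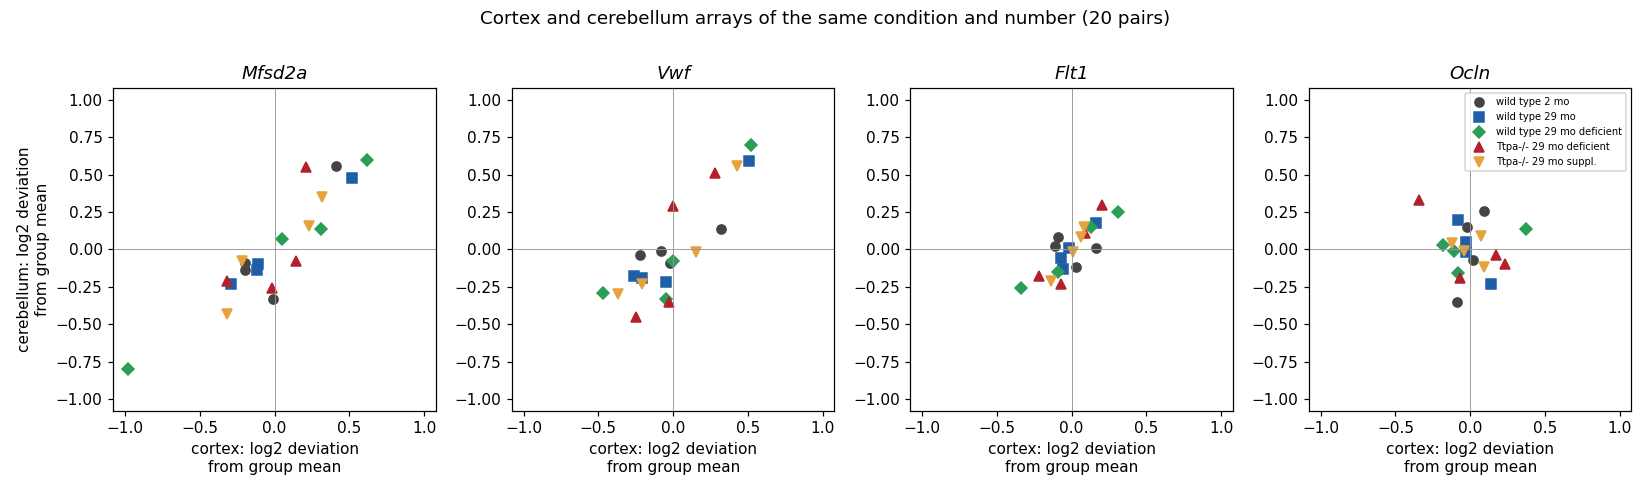
Deviation from the group mean on the cortical array (horizontal, log2) and on the cerebellar array of the same condition and number (vertical, log2) for Mfsd2a, Vwf, Flt1 and Ocln; each point is 1 of 20 pairs and the symbols are the conditions. The points of Mfsd2a, Vwf and Flt1 lie along a rising line (r of 0.91, 0.86 and 0.84), and those of Ocln do not (r of -0.15).

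Among themselves, the 10 genes did not vary as 1 set. Of the 45 pairs of genes, 24 had a positive correlation of their deviations over the 40 arrays, and the median was 0.02. The highest values were 0.75 for Slc2a1 and Mfsd2a, 0.68 for Slc2a1 and Abcb1a, 0.60 for Mfsd2a and Vwf and 0.56 for Abcb1a and Vwf. Cldn5 and Pecam1 correlated at 0.59, and the transporters Mfsd2a and Abcb1a at 0.34. Tek ran opposite to Slc2a1 and to Mfsd2a, at -0.51 each. The correlation of Slc2a1 with Mfsd2a was 0.76 in the cortex and 0.75 in the cerebellum. These are descriptions over arrays that share slides, and carry no test.

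The windows before the transcription starts of Slc2a1 and Mfsd2a, the pair that varied most closely together, are given from RefSeq (GRCm38.p6), as the 250 bases ahead of the start and 5′ to 3′ on the gene's strand. Windows were held for 7 of the 10 genes, 8 in all, with Ocln having 2. Pecam1, Vwf and Cdh5 had none. The window of Slc2a1 is chr4:119108495-119108744 (plus strand) and that of Mfsd2a is chr4:122961189-122961438 (minus strand). Capitals mark the matches on either strand to the motifs searched, which were the GC box GGGCGG, the ETS motif CCGGAAGT, the forkhead motif GTAAACA and the E-box CACGTG. None of these motifs overlapped another in the windows shown.
Slc2a1: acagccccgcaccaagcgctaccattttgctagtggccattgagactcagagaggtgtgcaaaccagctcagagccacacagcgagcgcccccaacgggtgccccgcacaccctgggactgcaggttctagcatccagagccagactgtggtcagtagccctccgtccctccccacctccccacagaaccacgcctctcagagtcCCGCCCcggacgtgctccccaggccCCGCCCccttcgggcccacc
Mfsd2a: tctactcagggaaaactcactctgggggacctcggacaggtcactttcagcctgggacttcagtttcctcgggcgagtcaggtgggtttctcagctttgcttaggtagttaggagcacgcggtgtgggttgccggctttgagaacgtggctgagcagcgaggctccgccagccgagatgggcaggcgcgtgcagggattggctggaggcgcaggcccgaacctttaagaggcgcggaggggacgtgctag

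Slc2a1 held 2 GC boxes and Mfsd2a held none of the 4 motifs. The GC box was in 5 of the 8 windows, those of Cldn5, Flt1, Ocln and Slc2a1, and in 32.7% of the 32851 windows of all genes. The 2 windows of Ocln overlap each other. The windows with a GC box were 59.6% to 70.4% G and C, beside a median of 52.4% over all windows. The forkhead motif was in the window of Abcb1a alone, beside 3.17% of all windows. The ETS motif and the E-box were in 0 of 8, beside 2.88% and 6.02%. These are matches of letters in a short window and say nothing of binding.

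The genes most like the mean of the 10 members over the 40 arrays, each centred on its region's mean, were Gjb6 (r of 0.85), which encodes a connexin, Cyp1b1 (0.83) and 9030619P08Rik (0.82), with a pair of probes known only by an identifier at 0.84 each. The genes closest to single members within the groups were looked up after those correlations were seen. For Mfsd2a they were Plin4, a coat protein of lipid droplets (0.93), Slc2a4 (0.92), Gjb6 (0.90), Sult1a1 (0.89) and Fkbp5, a co-chaperone of steroid receptors (0.88). For Slc2a1 they began with Tsc22d3, a leucine zipper protein (0.92), and Fas (0.90), and for Vwf with Rab4a (0.85) and Lrg1, a secreted glycoprotein of activated vessels (0.84). In the cortex of deficient wild-type mice Fkbp5 stood at 4.07, 3.38, 3.06 and 1.90, in the same order as Mfsd2a. The mean of the members was taken of unscaled levels, so members that varied more weighed more in it. Within the groups, Gjb6 correlated at 0.90 with Mfsd2a, 0.73 with Slc2a1 and 0.62 with Vwf. With the other members its values ran from -0.42 (Tek) to 0.34 (Abcb1a), so it did not follow the set as a whole. These values are given over 40 arrays that share slides, with no test.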

How the data were processed

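The deposited spot tables of the scanner hold, for every array, a processed signal, which is an intensity with the background subtracted and no scaling across arrays. The mean and background signals are deposited as intensity as well, and the spot flags (unit other) as 0 or 1. Per the file headers it was made with Feature Extraction 10.7.3.1. The authors also deposited log2 values, which matched the scaled intensities centred on each probe's mean, to a median absolute difference of 0.000915.

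Spots flagged as outliers were left out, and repeated spots were averaged. Of 55681 probes 55589 were kept, and the array's 75th percentile was subtracted on the log2 scale. All 10 groups were fitted together in limma 3.58.1 (R 4.3.3), with Benjamini-Hochberg adjustment over probes well above background (on at least 50% of spots) on all 4 arrays of at least 1 compared group. Calls required both an adjusted p below 0.05 and more than a 1.5-fold change. With 4 arrays in a group, their number limits precision.

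The brightest probe stands for a gene. The 10 members, the gene lists and the rule for naming genes (at most 3 rises and 3 falls per comparison among called list genes with separate arrays, and 5 genes most like the members' mean) were chosen with earlier results of these data known. The only probe of 1 list gene, Tie1, was left out. The lists were barrier transporters, tight junction partners, the VEGF and angiopoietin pathway, endothelial identity, Wnt barrier pathway, caveolae and fenestration, endothelial activation, pericyte, smooth muscle, fibroblast, choroid plexus, red cell, microglia, astrocyte, oligodendrocyte, neuron, cerebellum and cortex.

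Replicate numbers were checked for pairing by the correlation of deviations from the group mean over 24803 probes. Same-numbered arrays exceeded 0.1 in every pair only between the regions of the deficient Ttpa-/- mice (0.18, 0.46, 0.18 and 0.63). The values of 1 called list gene are not reported here.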

Additional observations from a re-analysis of the deposited data

Results flagged for a closer look

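In 100 sets of 4 arrays, 10 genes in each of 10 groups, 6 had 1 array far from the other 3 by Dixon's test at the 95% level, and chance flags about 1 in 20 such sets. In the deficient Ttpa-/- mice, array 1 was high for Cldn5 in the cortex (2.84, the others 2.30 to 2.37) and in the cerebellum (2.75, the others 2.53 to 2.54). Abcb1a was high on array 4 of the aged normal-diet wild-type cortex (1.03, the others 0.75 to 0.76) and on array 2 of the deficient Ttpa-/- cerebellum (1.2, the others all at 0.91). Pecam1 was low on array 4 of the supplemented Ttpa-/- cortex (-1.76, the others -1.47 to -1.41). Vwf was high on array 4 of the aged wild-type cerebellum (2.74, the others 1.93 to 1.97), and its rise with age was still called without that array.

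The effect of Ttpa loss with the deficient diet on Flt1 differed between the regions by -0.65 (adjusted p = 0.028, limma's interaction test), with the cortical mean 0.55 lower and the cerebellar mean 0.10 higher than in the wild type. This call held in 18 of 27 alternative settings, was weaker in 8 and reversed in 1. The groups compared within each region lay on different slides.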

How the results depend on the processing

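The counts of members called (limma) moved with the setting in several comparisons. Among these, the interaction of Ttpa loss with region moved in 9 of 27 settings and the regions in aged wild-type mice in 6 of 21. Ageing in the cortex moved in 5 of 20, and Ttpa loss on the deficient diet in the cerebellum in 5 of 21. With quantile normalization 1 member was called for ageing in the cortex, 2 for ageing in the cerebellum and 1 for Ttpa loss on the deficient diet in the cerebellum. With normexp correction, and with array weights, the count for ageing in the cortex was 1, and with array weights that for the deficient diet in the wild-type cortex was also 1. With the adjusted p alone the counts were 1 (ageing, cortex), 2 (ageing, cerebellum), 2 (Ttpa loss with the deficient diet, cortex), 1 (Ttpa loss on the deficient diet, cerebellum), 1 (diet in Ttpa loss, cortex) and 4 (regions in aged wild-type mice), with 3 in place of 2 for the regions in young mice and 5 in place of 4 in deficient Ttpa-/- mice. With median scaling they were 1 for the regions in aged wild-type mice, 1 for Ttpa loss on the deficient diet in the cerebellum and 0 for the interaction of Ttpa loss with region. That interaction also had 0 calls in a fit of the compared groups alone and with the mean of all probes. The methods' t-test gave 1 for the regions in deficient wild-type mice. Without single arrays the counts ran from 0 to 1 for ageing in the cortex, for deficient Ttpa-/- mice against each wild-type diet group in the cortex, for Ttpa loss on the deficient diet in the cerebellum and for the interaction, from 3 to 4 for the regions in deficient Ttpa-/- mice, and from 1 to 2 for ageing in the cerebellum and for the regions in aged wild-type mice. With the mean of all probes the difference of Flt1 reversed, to 0.08 between the regions of deficient Ttpa-/- mice and to 0.19 for the interaction, where a probe at background on all 40 arrays enters the mean. Of 588 values of single genes under other settings, 544 kept their direction and side of the threshold. The replicate block changed no count of members called. Between the regions of the deficient Ttpa-/- mice, 4 members were called with the block over all groups and within the compared groups. Every same-numbered pair of arrays correlated above 0.1 there, but the labels do not say whether such arrays shared a mouse. The block within the compared groups, the brightest probe of each gene name and the fit without both arrays numbered 1 of deficient wild-type mice were chosen after the data were seen. A slide block could not be fitted, since each group lies on 1 slide.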
